A study of Homo sapiens with 6 samples.

Results

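The 8 genes of neurite growth and neuronal differentiation were followed in SH-SY5Y cells, an established line from a human neuroblastoma whose cells resemble immature sympathetic neurons. They were GAP43, STMN2, NEFM, ELAVL3, CDK5R1, NTRK3, PTN and MDK. A spot belonged to the group when the platform annotation, updated by gene ID to current symbols, gave 1 of these names. All 8 genes had a spot, and ELAVL3 had 2 clones, so that 9 spots of 9169 tested and 8 genes of 6255 named were described. The genes were proposed with values of the same comparison known. Their differences are therefore given as a description, with no test and as support for nothing else.

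Each of 6 arrays held 9600 cDNA spots and 1 radiolabelled sample. The 3 GFP control samples came from cells given the vector pEGF-C2 without an insert. The 3 DN-TRF2 samples came from cells given pIRES2-EGFP with a dominant-negative form of TRF2, a shelterin protein that binds telomeric DNA. All cells were selected in geneticin at 500 µg/ml and collected on day 7 after transfection, in 3 independent experiments. The groups differ in plasmid backbone as well as in insert, which cannot be told apart. Whether the selected cells were pools or clones is not given in the sources used here. The series title names derepression of the neuronal differentiation programme, and the comparison of DN-TRF2 with GFP control asks which of these genes differ.

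The genes act at successive steps by which a precursor becomes a neuron with an axon. PTN and MDK are secreted heparin-binding growth factors that promote neurite outgrowth, and NTRK3 encodes TrkC, the receptor for neurotrophin-3. GAP43 and STMN2 act in the growth cone, the motile tip of a growing axon, and NEFM builds the neurofilaments that fill the mature axon. CDK5R1 activates the kinase CDK5 in neurons, and ELAVL3 binds neuronal mRNAs and regulates their stability and splicing.

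Of the 9 spots, 4 had a higher mean in DN-TRF2 and 5 a lower one. The largest differences were those of PTN, GAP43 and STMN2, all higher in DN-TRF2, while NEFM and both ELAVL3 clones were lower and MDK lay near 0. The median over the 9 spots was -0.026 (log2 of DN-TRF2 over GFP control), beside -0.011 over all spots tested. With limma, 0 of the 9 member spots reached an adjusted p under 0.05, and 0.00% of all 9169 spots did. At an unadjusted p under 0.05 were 313 spots, or 3.41%, where the smallest limma adjusted p over all spots was 0.999. In 1 of the 9 spots, that of PTN, the groups did not overlap with DN-TRF2 higher, and this occurred at 4.28% of all spots (8.70% in either direction). At 4 spots the DN-TRF2 array was higher at all 3 replicate numbers, against 11.0% of all spots, and at 1 spot it was lower at all 3, against 14.7%. Nothing is read from these shares, since the genes were chosen on this comparison.

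**Figure D1:**
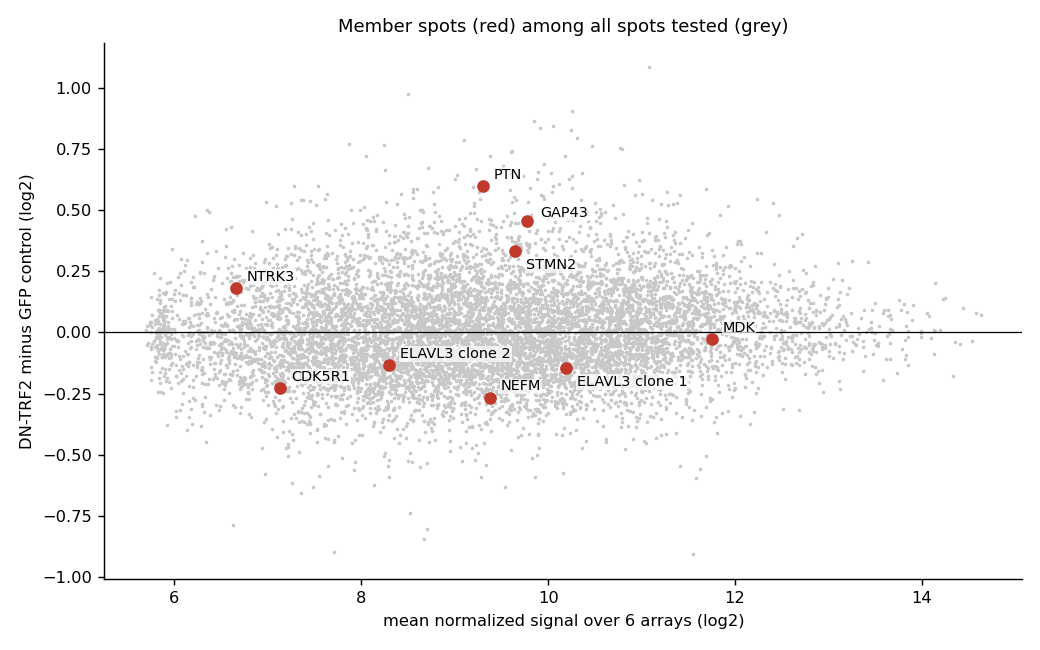
Each point is 1 spot, with its mean normalized signal over the 6 arrays (log2) on the horizontal axis and the difference DN-TRF2 minus GFP control (log2) on the vertical axis. The 9 member spots (red) run from -0.27 at NEFM to 0.60 at PTN within the cloud of all 9169 spots (grey).

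Brightness and identity of a spot bear on every value below. Levels were compared between arrays within a spot, and signal percentiles below describe how bright a spot was, not how abundant an RNA, because over 131 clones spotted more than once the first and the last spot of a clone had mean signals that correlated at -0.0360 and differences that correlated at 0.0448. Those differences shared a sign in 47.3% of the 131 clones. The repeated clones thus showed no agreement. The annotation may be wrong for a share of spots that is unknown and may be large, and a member spot may not measure the gene it is named for. The same doubt holds for the spots of the pathway and marker lists below. By contrast, 94.5% of 146 ribosomal protein spots lay above the median signal, which was not reconciled with the repeated clones. Over 1481 genes with 2 or more spots, the mean signals of the first and the last spot correlated at 0.138. Of the 8 genes, 7 rest on 1 spot each. Median intensity ran from 479.9 to 712 on the 6 arrays, highest on GFP control replicate 3, so the deposited values are read beside the normalized ones. Across spots, the 3 control arrays correlated with each other at 0.954 to 0.980 and the 3 DN-TRF2 arrays at 0.987 to 0.992. The array farthest from its group mean was GFP control replicate 2 (SD over spots 0.30). TERF2, which encodes TRF2, and REST had 0 spots here, so the labels were not checked against the targeted gene.

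Among the growth factors, PTN had the largest difference of the members and MDK the smallest. PTN, also called pleiotrophin, signals through a receptor phosphatase and cell-surface proteoglycans. Its deposited intensity was 356, 413 and 631 on GFP control replicates 1 to 3, and 586, 743 and 911 on DN-TRF2 replicates 1 to 3. After normalization the controls lay at 8.89, 8.99 and 9.13 (log2) and the DN-TRF2 arrays at 9.46, 9.63 and 9.71. All DN-TRF2 arrays were above all controls after normalization, whereas in the deposited intensities control replicate 3 lay above DN-TRF2 replicate 1. The difference was 0.60 ± 0.15 (SE, log2, n = 3 arrays per group), or 1.51-fold on the offset scale, at rank 41 of 9169 spots from the highest. By replicate number it was 0.57, 0.64 and 0.58. With 1 array left out at a time it stayed between 0.55 and 0.67.

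MDK, or midkine, is the only other member of the PTN family. Its spot was bright, at percentile 93.1 of signal. The deposited intensity was 2405, 3942 and 4058 in the controls and 2901, 3460.0 and 3550.3 in DN-TRF2. The normalized values were 11.40, 11.99 and 11.89 in the controls and 11.68, 11.79 and 11.74 in DN-TRF2. The DN-TRF2 arrays lay inside the range of the controls, with an SD of 0.057 against 0.31. The difference was -0.026 ± 0.18, and by replicate number it was 0.27, -0.20 and -0.15. It turned to 0.085 when GFP control replicate 2 was left out, to 0.041 when control replicate 3 was, and to 0.0035 when DN-TRF2 replicate 1 was. The contrast between PTN and MDK was not tested.

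NTRK3 had the dimmest member spot, at percentile 5.70 of signal. Its intensities were 39.0, 26.0 and 71.6 in the controls and 50.9, 63.0 and 69.4 in DN-TRF2, of the size of the offset of 50 that was added before log2. The normalized values were 6.53, 6.44 and 6.75 against 6.71, 6.79 and 6.76. Control replicate 3 fell among the DN-TRF2 arrays, and the other controls lay below them. The difference of 0.18 ± 0.14 came to 0.37 at an offset of 1 and to 0.12 at an offset of 100, so its size moved with the offset. By replicate number it was 0.18, 0.36 and 0.0056.

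**Figure D2:**
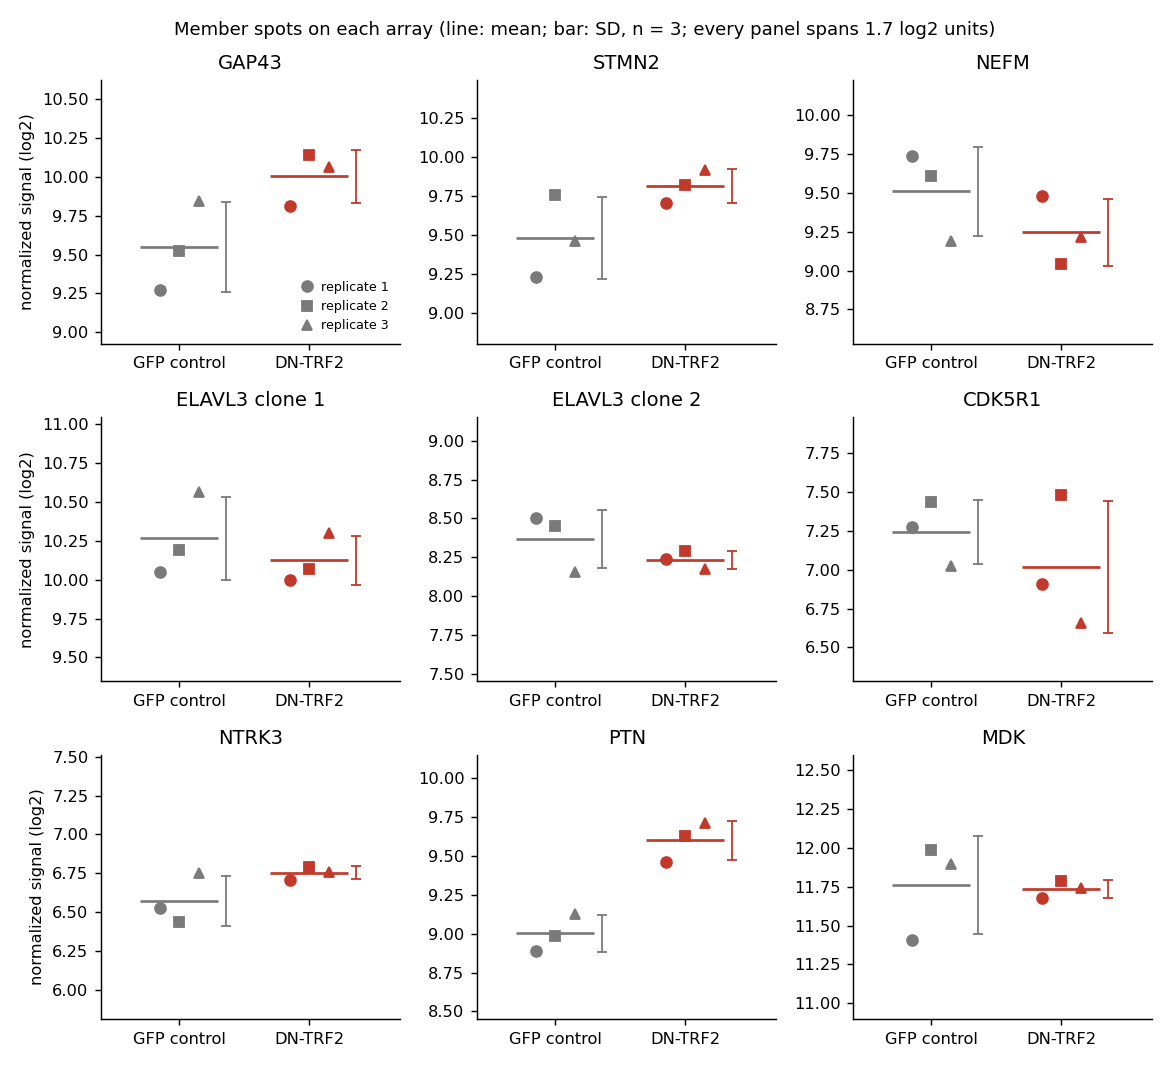
Normalized signal (log2) at the 9 member spots on GFP control (grey) and DN-TRF2 (red) arrays, with replicate numbers by symbol, the group mean as a line and the SD (n = 3) as a bar. The groups are apart at PTN, where controls end at 9.13 and DN-TRF2 begins at 9.46, and overlap at the other 8 spots.

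GAP43 encodes a membrane-bound protein of the growth cone that binds calmodulin and is made in quantity while axons extend or regrow. Its intensity was 470.5, 635 and 1065 in the controls and 763, 1061 and 1169.9 in DN-TRF2. The normalized values were 9.27, 9.52 and 9.85 in the controls and 9.81, 10.14 and 10.06 in DN-TRF2. The groups overlapped by 1 array on each side, control replicate 3 above DN-TRF2 replicate 1. The difference was 0.46 ± 0.18 (1.37-fold, rank 148), and by replicate number it was 0.54, 0.62 and 0.21. Control replicate 3 narrowed it: without that array the difference was 0.61, and without GFP control replicate 1 it was 0.32.

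The upstream sequences of GAP43 and PTN are shown because these spots had the largest differences. They are the 250 bases before the RefSeq start of each gene on GRCh38.p14, GAP43 at chr3:115623260-115623509 on the plus strand and PTN at chr7:137343734-137343983 on the minus strand, with capitals marking the E-box CANNTG, the letters read by basic helix-loop-helix factors.
GAP43: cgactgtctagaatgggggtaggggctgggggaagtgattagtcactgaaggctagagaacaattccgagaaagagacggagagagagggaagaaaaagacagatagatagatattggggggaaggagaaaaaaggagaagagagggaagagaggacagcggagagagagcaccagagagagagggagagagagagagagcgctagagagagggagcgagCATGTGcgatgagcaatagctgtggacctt
PTN: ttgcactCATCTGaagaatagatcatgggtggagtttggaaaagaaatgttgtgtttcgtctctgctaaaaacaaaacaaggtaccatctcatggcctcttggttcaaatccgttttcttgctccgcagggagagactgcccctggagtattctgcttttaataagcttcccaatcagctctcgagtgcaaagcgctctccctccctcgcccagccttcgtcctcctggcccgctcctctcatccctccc
Each holds 1 E-box, as do 61.8% of the 35116 promoters in the table when at least 1 match is counted. The letters TATAAA (10.7% of promoters), GGGCGG, a GC box (42.6%), and TTCAGCACC, the left part of the REST site (0.288%), were not found on either strand of these windows. CDK5R1 and NTRK3 each held 2 GC boxes and no E-box, and the other 4 members were not searched here. A match is a description of letters in this window, not a binding site.

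STMN2 encodes stathmin-2, also called SCG10, a tubulin-binding protein of the growth cone. Its intensity was 456, 779.5 and 806 in the controls and 700.4, 851 and 1059 in DN-TRF2. The normalized values were 9.23, 9.76 and 9.46 against 9.70, 9.82 and 9.92. Control replicate 2 lay above DN-TRF2 replicate 1, and the other controls lay below all DN-TRF2 arrays. The difference was 0.33 ± 0.17 (1.26-fold, rank 425). By replicate number it was 0.47, 0.066 and 0.46, and it came to 0.46 without GFP control replicate 2 and 0.21 without GFP control replicate 1.

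NEFM, the medium neurofilament subunit, had the lowest difference of the members. Its intensity was 669.8, 688 and 659 in the controls, nearly level across arrays whose medians differed, and 595, 483 and 641 in DN-TRF2. The normalized values were 9.74, 9.61 and 9.19 against 9.48, 9.04 and 9.21. The controls of replicates 1 and 2 were above all DN-TRF2 arrays, while control replicate 3 was below 2 of them. The difference was -0.27 ± 0.19, with -0.26, -0.56 and 0.024 by replicate number. It ran from -0.43 to -0.15 with 1 array left out.

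CDK5R1 had a dim spot, at percentile 10.1 of signal, and the widest spread among the DN-TRF2 arrays. Its intensity was 90.0, 98.7 and 102 in the controls and 67.0, 133 and 62.2 in DN-TRF2. The normalized values were 7.27, 7.43 and 7.03 against 6.91, 7.48 and 6.66. DN-TRF2 replicate 2 was the highest of all 6 arrays and the other DN-TRF2 arrays the lowest. The difference of -0.23 ± 0.22 was -0.36, 0.051 and -0.37 by replicate number, and it ranged from -0.047 without DN-TRF2 replicate 3 to -0.46 without DN-TRF2 replicate 2.

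ELAVL3, or HuC, was the member with 2 clones. The 2 are not read as a check on each other, since clones spotted again shared a sign of difference in 47.3% of cases. At the first clone the intensity was 842, 1099 and 1759 in the controls and 874, 1004 and 1386 in DN-TRF2. At the second clone it was 262, 259.9 and 291 in the controls and 226, 267 and 286 in DN-TRF2. The normalized values of the first clone were 10.05, 10.19 and 10.56 against 10.001, 10.07 and 10.30, and those of the second were 8.50, 8.45 and 8.15 against 8.24, 8.29 and 8.17. Both clones were lower in DN-TRF2 by similar amounts, -0.14 ± 0.17 and -0.13 ± 0.15, with overlapping groups. Across the arrays they did not run together, because replicate 3 was the highest array of each group at the first clone and the lowest at the second. Without GFP control replicate 3 the first clone came to 0.0049.

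**Figure D3:**
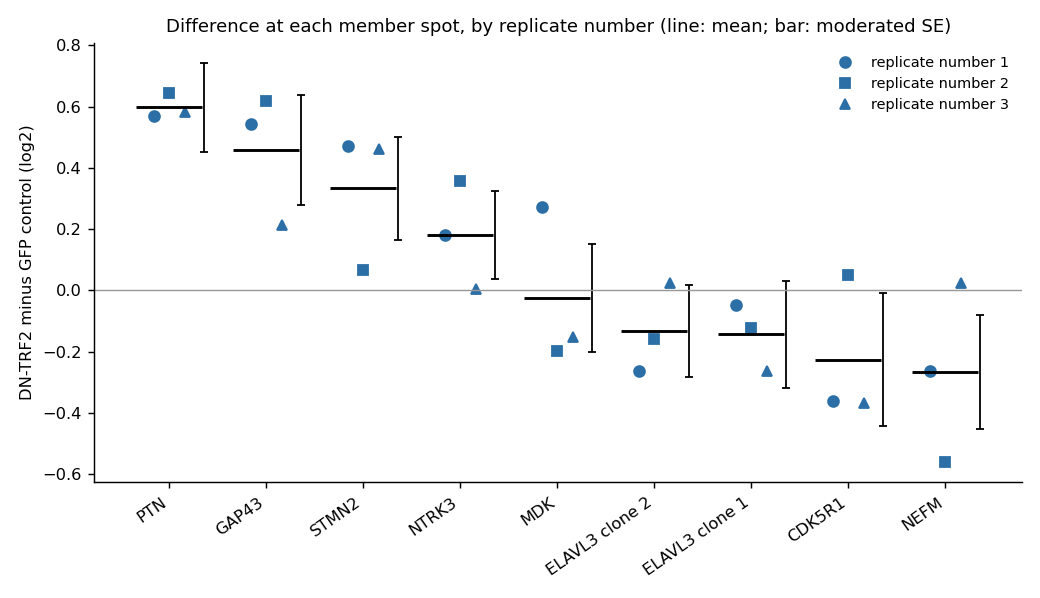
Difference DN-TRF2 minus GFP control (log2) at each member spot for replicate numbers 1, 2 and 3 (symbols), with the mean as a line and the moderated SE as a bar. The 3 values at PTN lie within 0.57 to 0.64, and at MDK, CDK5R1, NEFM and the second ELAVL3 clone they fall on both sides of 0.

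Control arrays were the more variable group at most member spots. The SD was larger among GFP control arrays at 7 of 9 member spots, as at 78.0% of all spots. The exceptions were PTN, with SDs of 0.12 in the controls and 0.13 in DN-TRF2, and CDK5R1, with 0.21 and 0.42. These are whole-culture RNA measurements, in which fewer cells of a type and less RNA per cell cannot be told apart.

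The spots most like GAP43 over the 6 arrays, among 4156 spots of other genes with above-median signal, were those of TECR (r = 0.985), RPL35 (r = 0.985) and FTL (r = 0.984). For PTN they were FGL1 (r = 0.975), H19 (r = 0.973) and DHX58 (r = 0.968). Of the 4156 spots compared, 65 exceeded r = 0.9 for GAP43 and 23 did so for PTN. With 6 arrays, nothing is read from these likenesses.

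Other genes of the same pathway were read from lists arranged by role, in which 60 of 176 listed genes had a spot, 87 spots in all. None passed limma's test (0 genes, against 0.00% of all spots), and 3 genes had a spot with an unadjusted p under 0.05. Means were higher in DN-TRF2 for 30 genes and lower for 30, with a median difference of -7.3e-05 beside -0.0067 over all named genes. Groups did not overlap at 6 spots with DN-TRF2 higher and at 2 with DN-TRF2 lower, where 4.28% and 4.43% of all spots did so.

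In the growth cone and axonal membrane list 5 of 8 genes had a higher mean, with a median of 0.083. Without GFP control replicate 1 the median was 0.14, without control replicate 3 it was 0.18, and it was lowest at 0.060 without control replicate 2. MARCKSL1, like GAP43 a substrate of protein kinase C that binds calmodulin, differed by 0.38 ± 0.15 at its spot and by 0.24, 0.52 and 0.37 by replicate number. The reticulon gene RTN4, which encodes the axon growth inhibitor Nogo, was higher at 4 of its 6 spots. The spot of smallest p, a dim one at percentile 8.45 of signal, was at 0.53 ± 0.25. The others were at 0.40 ± 0.22, 0.24 ± 0.19, 0.25 ± 0.26, -0.15 ± 0.19 and -0.0048 ± 0.19. RTN1 was at 0.27 ± 0.16 and 0.030 ± 0.15, and the membrane glycoprotein gene GPM6B at 0.22 ± 0.15. The limma adjusted p was 0.999 for the first spot of each.

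Among 12 genes of microtubules and neurofilaments 6 had a higher and 6 a lower mean. Of the higher means, those of STMN1, MAP1LC3A, INA, CRMP1 and STMN3 were at most 0.046. Under median scaling 2 genes had a higher mean, and the median over all spots was -0.033 instead of -0.011. The list's own median of -0.036 came to -0.083 without GFP control replicate 1 and to -0.021 without DN-TRF2 replicate 1. TUBB3, the neuronal beta-tubulin, differed by -0.57 ± 0.20 and -0.48 ± 0.18 at its 2 spots, opposite in sign to STMN2 and on the side of NEFM. CRMP1, a collapsin response mediator that binds tubulin, was at 0.38 ± 0.20 at 1 spot and at -0.17 ± 0.19 and -0.074 ± 0.20 at the others. MAPT, which encodes tau, was at 0.20 ± 0.16, and VIM, also counted among the mesenchymal markers, at -0.20 ± 0.16. Each had a limma adjusted p of 0.999.

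Genes in the lists nearest in role to CDK5R1 and ELAVL3 did not pass the test either. CDK5, the kinase that CDK5R1 activates, was at -0.20 ± 0.25, and CDK5R2, its other activator, at -0.13 ± 0.18. In that list 1 of 8 genes had a higher mean, and the median was -0.032. The count was 4 of 8 when GFP control replicate 1 was left out, and 5 of 8 with a median of 0.022 when control replicate 3 was. The list named for neuronal RNA binding, which also counts NSG1, a neuronal endosome protein, had 3 of 7 means higher (median -0.12). The count was 1 of 7 without GFP control replicate 2 or 3, and the median was -0.049 without control replicate 1. CELF4 was at -0.17 ± 0.14 and -0.074 ± 0.16, PTBP2, the neuronal polypyrimidine tract protein, at -0.17 ± 0.14, and RBFOX2 at -0.16 ± 0.16. NSG1, which is not an RNA-binding gene, was at -0.15 ± 0.15.

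Among receptors and ligands 0 genes passed. NCL, nucleolin, which can bind MDK and PTN at the cell surface, was at 0.46 ± 0.25 at 1 spot and at -0.031 ± 0.19 and 0.022 ± 0.18 at the others. The proteoglycan genes SDC3 and SDC1 were at -0.18 ± 0.24 and -0.023 ± 0.14, and the integrin gene ITGB1 at -0.15 ± 0.15. Of the 4 genes in that list 1 had a higher mean, with a median of -0.087. Without GFP control replicate 1 this turned to 3 of 4 and a median of 0.080, and without control replicate 2 it was 0 of 4. RET, the receptor for GDNF-family ligands, was at -0.32 ± 0.18 and 0.037 ± 0.14. The second RET spot lay at percentile 0.485 of signal, too dim for its difference to be read. It still enters the mean of RET. In the neurotrophic list, 2 of 7 spots were at or under the stand-in value given below on some array, and 1 on all. The RET co-receptor gene GFRA1 was at 0.084 ± 0.17. The adaptor gene SHC1 was at 0.17 ± 0.19, and the neurotrophin gene NTF4 at 0.11 ± 0.14. In the neurotrophic list 4 of 6 genes had a higher mean, and 2 of 6 without GFP control replicate 1, where the median turned from 0.068 to -0.025. In the guidance list 2 of 5 genes had a higher mean. It was 0 of 5 without DN-TRF2 replicate 1, 3 of 5 with a median of 0.0038 without DN-TRF2 replicate 3, and 1 of 5 without GFP control replicate 1 or 3 or DN-TRF2 replicate 2. NRP1, a semaphorin receptor, was at -0.18 ± 0.14 and -0.12 ± 0.15, SEMA3B at -0.18 ± 0.17 and 0.029 ± 0.18, EPHA4 at -0.23 ± 0.25 and NRP2 at 0.072 ± 0.15.

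The list named for neuronal transcription factors had 8 of 10 means higher, with a median of 0.10, and 7 of 10 under median scaling. The count was 6 of 10 without GFP control replicate 1 or DN-TRF2 replicate 2. The list also counts inhibitors (ID1, ID3 and ID4) and a progenitor factor (SOX2). ID1, ID3 and SOX2 were among the higher means and ID4 among the lower. Beside this list, Schwann and glial markers also had mostly higher means, as given with the cell type markers. GATA3, a factor of sympathetic neurons, was higher at all 3 of its spots, at 0.45 ± 0.15, 0.10 ± 0.15 and 0.064 ± 0.17. ID1 and ID3, inhibitors of helix-loop-helix factors, were at 0.48 ± 0.24 and 0.31 ± 0.17, with the other ID1 spot at -0.064 ± 0.18. SOX2, a progenitor factor, was at 0.29 ± 0.18. The limma adjusted p was 0.999 for the first spot of each of these 4 genes. The 2 lower means of the list were those of ID4 at -0.21 and MYCN at -0.16. GATA3 and MYCN are also among the noradrenergic markers given below. Of the 16 spots in the transcription factor list, 1 was at or under the stand-in value on all arrays.

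**Figure D4:**
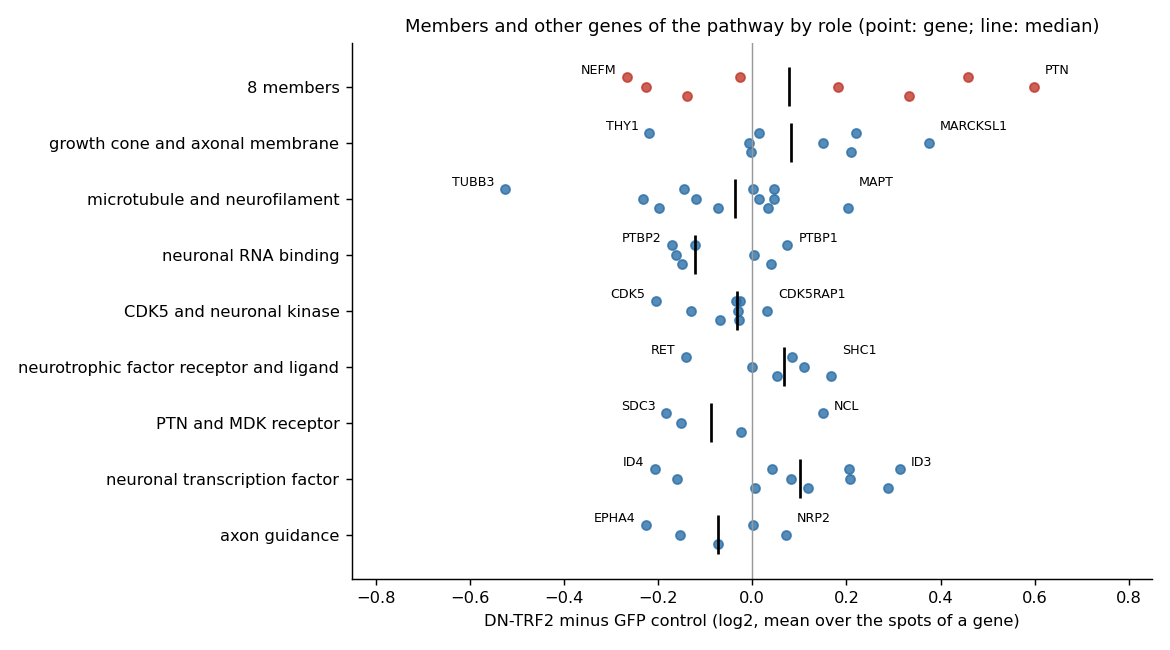
Difference DN-TRF2 minus GFP control (log2, mean over the spots of a gene) for the 8 members (red) and for 60 other genes by role (blue), with the median of each row as a line and the lowest and highest gene named. The other genes run from -0.52 at TUBB3 to 0.38 at MARCKSL1.

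Markers of the cell type were compared in the same way. Of 17 noradrenergic neuroblastoma markers 9 had a spot, 12 of the 18 spots lay above the median signal, and none was at or under the stand-in value of 10 on any array. The mean of these spots ran from 9.70 to 9.73 (log2) on control arrays and from 9.71 to 9.74 on DN-TRF2 arrays. Of the 9 genes, 4 had a higher mean in DN-TRF2 and 5 a lower one, with a median of -0.038. The count was 6 of 9 without DN-TRF2 replicate 2, and the median was 0.12 without GFP control replicate 3. CHGA was at -0.53 ± 0.20, 0.036 ± 0.15 and 0.060 ± 0.26 at its 3 spots. Mesenchymal and fibroblast markers (10 of 17 genes with a spot) ran from 9.70 to 9.96 and from 9.83 to 9.88. Schwann and glial markers (7 of 11) ran from 8.95 to 9.36 and from 9.29 to 9.31, with 6 of 7 gene means higher in DN-TRF2 (3 of 7 without GFP control replicate 2), and 1 of their 10 spots was at or under 10 on some array. Blood and immune markers (4 of 10) ran from 8.76 to 8.86 and from 8.67 to 9.07. The part of other cell types in the members' values was not tested.

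**Figure D5:**
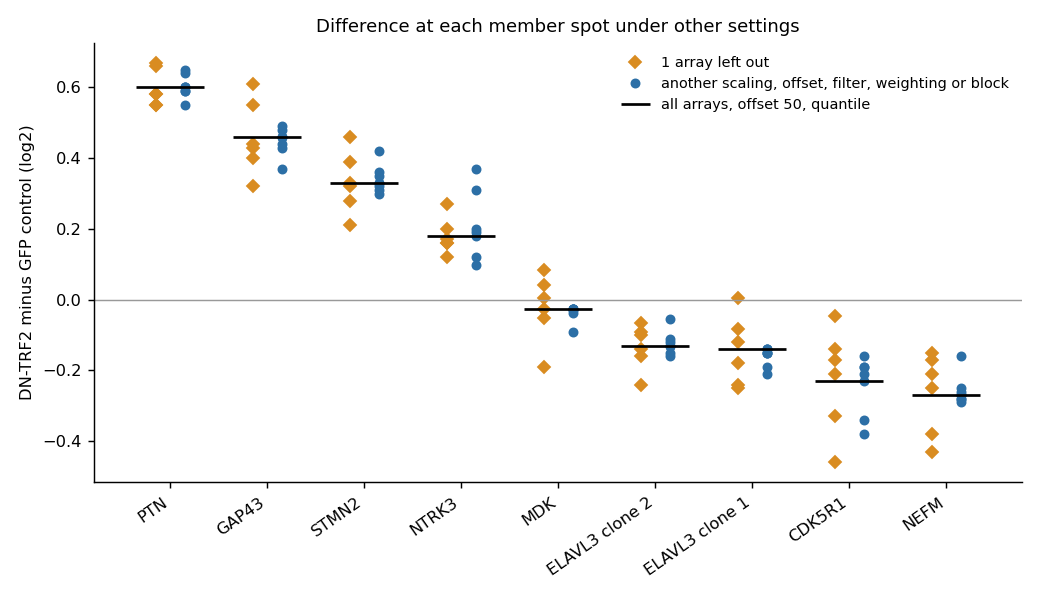
Difference DN-TRF2 minus GFP control (log2) at each member spot with all arrays (line), with 1 array left out (diamonds) and under other offsets, scalings, filters, weights or the replicate block (circles). PTN stays between 0.55 and 0.67, and MDK lies on both sides of 0.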

How the data were processed

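RNA of 6 SH-SY5Y samples, about 5 µg each, was radiolabelled and hybridized to 1 array per sample, per the labels' protocols. The authors deposited a linear intensity for each spot. The sources used here do not name the image software, background treatment or scaling. Left out were 384 blank positions (each 25th) and 47 other spots that held the stand-in value 10 on all 6 arrays, which left 9169 spots. Of these 8451 had 1 gene symbol, 21 several and 697 none. Of 8517 annotated spots, 8493 matched the gene table of GRCh38.p14 by gene ID.

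Values were taken as log2(intensity + 50) and arrays were quantile-normalized. The fold changes on this scale understate changes of dim spots. All spots were fitted with limma 3.58.1 (lmFit, eBayes, R 4.3.3; two-sided, Benjamini-Hochberg over all 9169, threshold 0.05), checked on simulated data. SEs are limma's moderated ones. The number of arrays limits the precision. P-values rest on the spread among the 3 arrays within each group, moderated over all spots. They leave out the pairing by replicate number given below.

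Members, lists and tests were chosen with earlier results of these data known. Beside the members, up to 4 genes per list of smallest unadjusted p were named, with TERF2 and REST (1 result is not reported here), and 3 spots most like GAP43 and PTN. Replicate numbers occur in both groups, and the labels name 3 independent experiments; arrays of the same number deviated together from their group means (r = 0.390, 0.296 and 0.246 over spots), so the numbers pair the samples; printed SEs and p-values are from the fit without the replicate block. Promoter sequences are RefSeq's, of which 4 of 8 members matched. Alternatives covered the offset (1, 10, 100), median scaling, cyclic loess, a filter on dim spots, array weights, the replicate block and leaving out each array.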

Additional observations from a re-analysis of the deposited data

How the results depend on the processing

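Under 14 alternatives, limma called 0 spots at an adjusted p under 0.05, except at an offset of 1, where 1 spot passed, that of BOP1, which is no member (2.73 ± 0.26, adjusted p = 0.0340; 0.24 ± 0.13 at the offset of 50). Pathway genes called stayed at 0. The number of spots at an unadjusted p under 0.05, 313 with all arrays, was 583 with array weights, 197 after dropping the dimmest quartile, 527 with the replicate block (smallest adjusted p 0.269), and ran from 141 to 792 with 1 array left out. Leaving out GFP control replicate 2 gave 792 and control replicate 3 gave 655; leaving out DN-TRF2 replicate 2 gave 141 and its replicate 3 gave 154. The cause was not tested. The replicate block changed no call. With each replicate number once in each group, the block cannot change a difference, only its SE, which was 0.15 at GAP43 and PTN.

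PTN, GAP43, STMN2, NTRK3, NEFM, CDK5R1 and the second ELAVL3 clone kept their sign under each alternative run. The first ELAVL3 clone kept it in 13 of 14 and MDK in 11 of 14. These counts include the replicate block and the filter on dim spots, which could not change the sign of a spot that was kept. The count of member spots higher in DN-TRF2, 4 with all arrays, ran from 4 to 6 with 1 array left out and was 3 without the dimmest quartile, which drops CDK5R1 and NTRK3. NTRK3, at 0.18 with the offset of 50, came to 0.37 and 0.31 at offsets of 1 and 10. Blank positions hold the stand-in value, so signal over background was not measured, which limits NTRK3 and CDK5R1 most.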
